A study of Mus musculus with 37 samples.

Results

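The type I interferon-stimulated genes described here were a list of 44 genes, matched to the table by symbol. Of these, 43 had a row in a table of 24016 genes, and these 43 had a mean of at least 100 scaled reads over the 8 libraries, a limit that 10028 genes of the table reached. *Rnf213* was not analysed here. Where a share of all genes is given, it is of those 10028 unless another total is named.

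The study cultured bone marrow-derived macrophages (BMDMs) for 6 days with M-CSF, from male C57BL/6J mice (WT) and from *Arntl*-/- mice on a C57BL/6 background (labelled BmalKO), all 6 to 9 weeks old. The results of the study call the WT mice littermate controls, whereas its methods name C57BL/6J mice from a supplier. *Arntl* encodes Bmal1, a core transcription factor of the circadian clock. Cells of both genotypes were exposed to Kdo2-lipid A (KLA), the part of bacterial lipopolysaccharide that activates Toll-like receptor 4 (TLR4), for 0, 6, 24 or 48 h, and the question asked of these data was how the loss of Bmal1 altered the course of the response. PolyA RNA was sequenced in 1 library for each genotype and time, so no difference given here has a replicate check, and the sources do not say how many mice gave each library.

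Type I interferons are secreted when a cell senses viral nucleic acid or bacterial lipid. They bind the receptor Ifnar1 and Ifnar2, whose kinases Jak1 and Tyk2 phosphorylate Stat2, which joins Irf9 in a complex that binds the interferon-stimulated response element (ISRE) in front of its target genes. In macrophages TLR4 reaches the same genes through the adaptors Ticam1 and Ticam2 and the factor Irf3, which drives transcription of interferon beta, and the target genes encode antiviral enzymes, nucleic acid sensors, ubiquitin-like modifiers and the factors that carry the signal itself.

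To place the genes on the genome, the 250 bases before and 50 bases after the start of each transcript were read from mm9, and the ISRE core GAAANNGAA was searched on both strands, with overlapping matches counted separately. It was present in 25 of the 43 promoters (58.1%), against 8.14% of the 23951 promoters of the table that could be read and 7.57% of those of the genes past the read limit. In 17 of the 43 there were 2 or more matches, and *Ifit1*, *Ifit3*, *Isg15*, *Rtp4* and *Zbp1* had 3 or more. The 250 bases before the start are shown 5′ to 3′ on the strand of the gene, with the matches in capitals, for the 6 genes with the largest log2 change in WT cells from 0 to 6 h among those that held the motif, so that a reader can see the element and its distance from the start.
Ifit1: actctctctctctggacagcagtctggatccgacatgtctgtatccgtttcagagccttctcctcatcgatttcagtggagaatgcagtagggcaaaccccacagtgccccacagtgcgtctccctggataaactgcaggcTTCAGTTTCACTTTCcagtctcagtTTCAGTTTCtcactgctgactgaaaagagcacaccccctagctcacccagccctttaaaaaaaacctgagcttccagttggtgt
Ifit3: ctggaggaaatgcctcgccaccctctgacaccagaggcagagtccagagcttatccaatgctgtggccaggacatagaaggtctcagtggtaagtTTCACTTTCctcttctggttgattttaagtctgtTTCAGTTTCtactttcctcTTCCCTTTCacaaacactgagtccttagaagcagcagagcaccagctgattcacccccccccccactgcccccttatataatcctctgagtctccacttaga
Rsad2: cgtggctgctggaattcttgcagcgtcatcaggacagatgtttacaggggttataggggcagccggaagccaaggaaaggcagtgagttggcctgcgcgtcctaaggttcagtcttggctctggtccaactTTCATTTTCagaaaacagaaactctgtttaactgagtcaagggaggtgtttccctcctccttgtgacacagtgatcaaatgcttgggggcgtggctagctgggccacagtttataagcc
Usp18: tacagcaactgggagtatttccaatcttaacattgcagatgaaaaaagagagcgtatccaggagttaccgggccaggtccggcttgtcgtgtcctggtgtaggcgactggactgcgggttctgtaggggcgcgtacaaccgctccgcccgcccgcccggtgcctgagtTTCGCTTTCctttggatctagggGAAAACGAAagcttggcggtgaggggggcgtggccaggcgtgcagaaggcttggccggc
Isg15: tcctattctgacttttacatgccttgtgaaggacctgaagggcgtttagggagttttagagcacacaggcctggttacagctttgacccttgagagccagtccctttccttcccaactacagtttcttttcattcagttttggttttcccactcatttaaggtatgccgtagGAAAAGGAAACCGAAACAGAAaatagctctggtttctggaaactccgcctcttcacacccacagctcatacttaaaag
Rtp4: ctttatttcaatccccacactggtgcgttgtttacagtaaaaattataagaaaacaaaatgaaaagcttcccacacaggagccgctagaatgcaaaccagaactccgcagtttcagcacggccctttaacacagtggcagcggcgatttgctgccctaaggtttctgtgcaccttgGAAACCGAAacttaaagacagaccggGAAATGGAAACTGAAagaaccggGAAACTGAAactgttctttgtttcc
These promoters are on mm9 at chr19:34715129-34715378 on the plus strand (*Ifit1*), chr19:34657769-34658018 on the plus strand (*Ifit3*), chr12:27141318-27141567 on the minus strand (*Rsad2*), chr6:121195674-121195923 on the plus strand (*Usp18*), chr4:155574928-155575177 on the minus strand (*Isg15*) and chr16:23609755-23610004 on the plus strand (*Rtp4*).

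The corresponding bases are shown for *Bst2* (chr8:74061337-74061586, minus strand) and *Lgals3bp* (chr11:118263246-118263495, minus strand), the pair with the lowest log2 change in WT cells over the same interval.
Bst2: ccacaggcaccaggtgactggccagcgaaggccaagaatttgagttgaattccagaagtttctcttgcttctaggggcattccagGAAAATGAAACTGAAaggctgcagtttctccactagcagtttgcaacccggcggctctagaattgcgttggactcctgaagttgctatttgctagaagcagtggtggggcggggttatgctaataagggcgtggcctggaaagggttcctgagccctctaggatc
Lgals3bp: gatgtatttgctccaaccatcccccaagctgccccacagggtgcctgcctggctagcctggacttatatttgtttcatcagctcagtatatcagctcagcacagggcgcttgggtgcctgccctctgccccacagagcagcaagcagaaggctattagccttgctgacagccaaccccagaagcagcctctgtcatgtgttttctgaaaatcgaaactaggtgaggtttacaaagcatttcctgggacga
*Bst2* held 2 matches and *Lgals3bp* held none. Possession of the motif did not separate the genes by their response: in WT cells from 0 to 6 h, 16 of the 25 with a match and 15 of the 18 without one rose at least 1.5-fold, with a median log2 change of 0.85 and 0.91. Among all genes past the read limit, 75 of the 759 with a match (9.88%) and 380 of the 9268 without one (4.1%) rose at least 1.5-fold over that interval, the 43 included. Other motifs were rare in the 43 promoters. The clock E-box CACGTG was in 2 (*Mx2* and *Trim25*), 4.65% against 7.75% of all promoters and 10.4% of those past the read limit, the REV-ERB and ROR site TAGGTCA in 1 (*Herc6*), 2.33% against 2.23% and 1.69%, and the NF-kB site GGANTTTCC in 1 (*Isg15*), 2.33% against 1.26% and 1.24%.

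**Figure D1:**
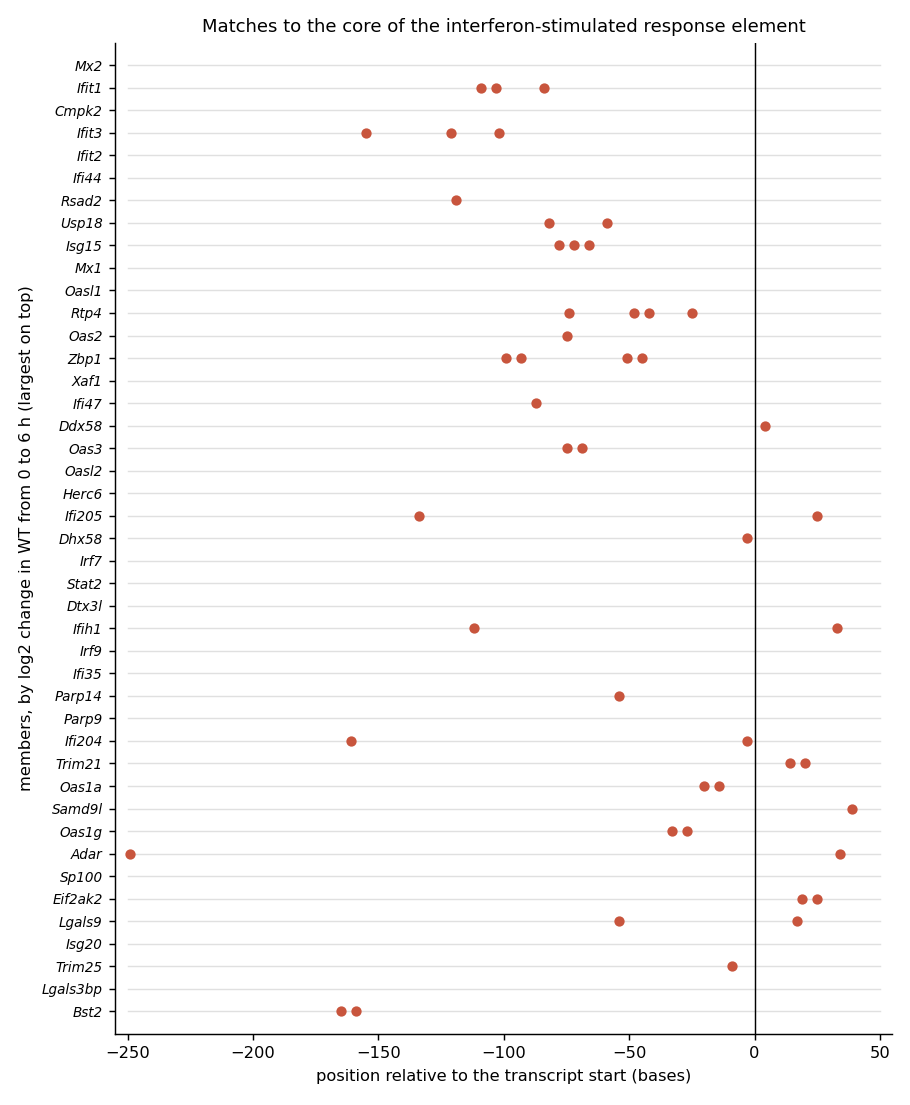
Positions of the matches to the ISRE core GAAANNGAA in the promoters of the 43 genes. Each row is a gene, ordered by log2 change in WT cells from 0 to 6 h, the horizontal axis gives bases relative to the transcript start (black line), and each point is the first base of a match. Matches are spread over genes with large and small changes, and 18 rows have none.

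Levels are given as FPKM (fragments per kb of exon) on the scale the authors used, per 10000000 reads, divided by a size factor for each library. The libraries held between 8587560 reads on genes (*Arntl*-/-, 48 h) and 27036783 reads (WT, 6 h). The deleted gene *Arntl* was at 34.3, 32.3, 35.6 and 38.7 in WT cells at 0, 6, 24 and 48 h and at 13.9, 11.3, 18.8 and 20.2 in *Arntl*-/- cells, lower in the latter at each time. Of 10 macrophage markers, 9 had a row, and their summed level was 15700 to 38000 in WT cells, lowest at 6 h, and 17800 to 33900 in *Arntl*-/- cells. The plasmacytoid dendritic cell markers *Siglech* and *Klk1*, 2 of 8, and 6 of 8 T and NK cell markers had 3 or fewer reads in every library. The 7 neutrophil and granulocyte precursor markers with a row summed to 528, 545, 622 and 928 in WT cells and to 942, 1030, 860 and 943 in *Arntl*-/- cells, with *Mpo* and *Elane* at 3 or fewer reads throughout, and the 8 stromal markers summed to 395 to 1090 in WT cells and 309 to 671 in *Arntl*-/- cells. The 8 plasmacytoid dendritic cell markers summed to 19.7 to 39.4 in WT cells and 34.9 to 39.2 in *Arntl*-/- cells, and *Runx2*, the member of that list past the read limit, was at 8.67, 9.56, 12.2 and 22.4 in WT cells and at 11.6, 14.9, 16.4 and 19.7 in *Arntl*-/- cells. B cell markers summed to 21.2 to 37.0 and 28.1 to 60.2 and conventional dendritic cell markers to 3.91 to 11.3 and 4.73 to 12.4. In such bulk RNA, fewer cells of a type and less RNA per cell cannot be told apart.

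The 43 genes differed widely in level. *Bst2*, which encodes the membrane protein tetherin that holds budding virus on the cell, had a mean of 1910 over the 8 libraries, *Lgals3bp*, a secreted galectin-binding glycoprotein, had 1360, and *Irf7*, a transcription factor that drives interferon genes, had 664. At the other end were *Isg20*, an RNA exonuclease, at 60.8 and *Mx2*, a dynamin-like GTPase, at 41.9. These are values per length, counted without regard to strand, so reads of an overlapping antisense transcript cannot be told apart.

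**Figure D2:**
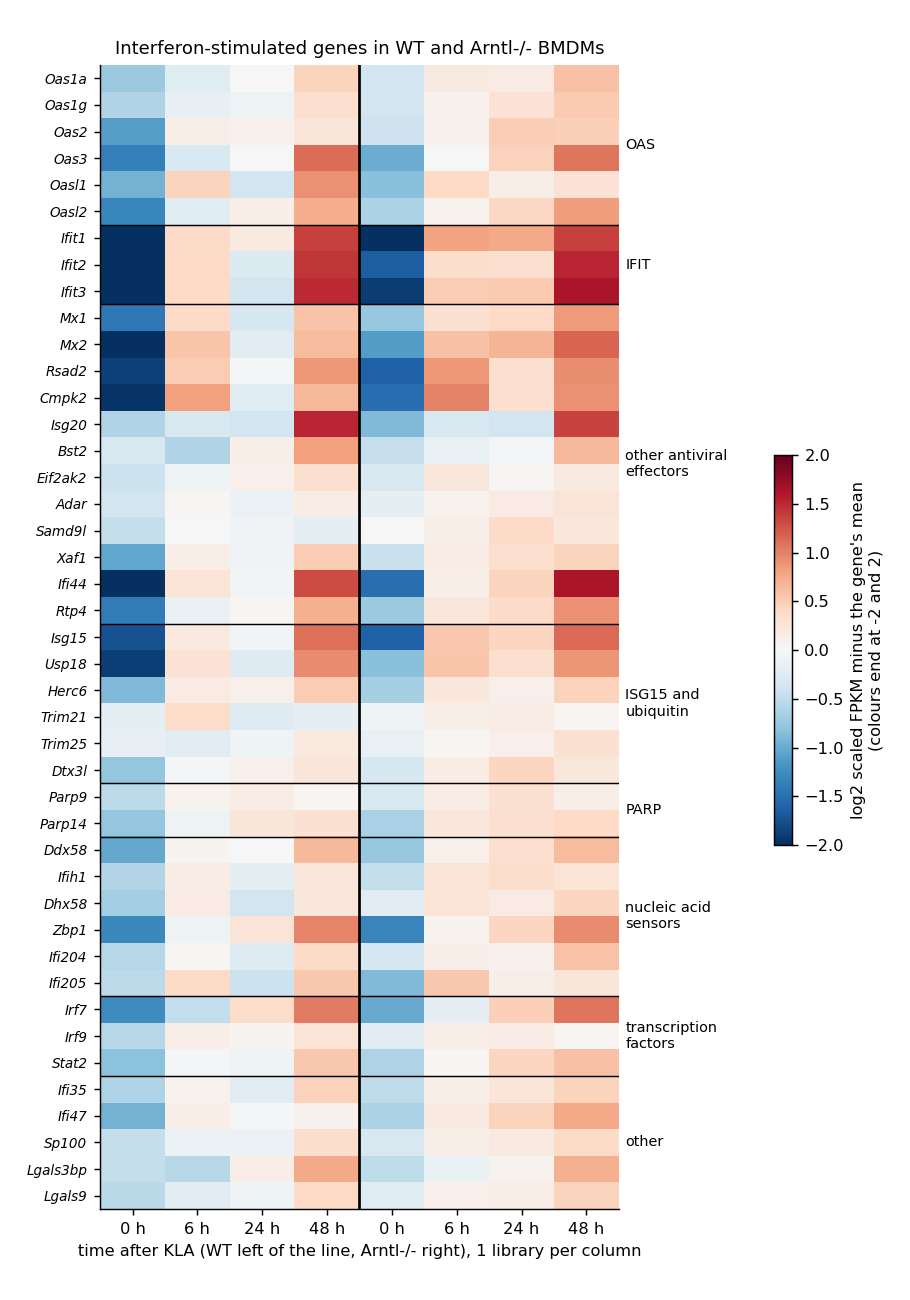
Heat map of the 43 genes, grouped by role. Each column is 1 library, WT at 0, 6, 24 and 48 h to the left of the line and *Arntl*-/- to the right, and the colour gives log2 scaled FPKM minus the mean of that gene over the 8 libraries, ending at -2 and 2. The 0 h columns are the lowest of their genotype for 39 genes (WT) and 43 genes (*Arntl*-/-), against 22.4% and 29.9% of all genes, and the WT column at 24 h is below the columns at 6 and 48 h for 26 genes.

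In WT cells most of the genes were higher 6 h after KLA than before it. The 8 libraries held no untreated culture after 0 h, so exposure to KLA and time in culture cannot be told apart. A change of at least 1.5-fold is called a rise or a fall in what follows. From 0 to 6 h, 31 of the 43 rose and 0 fell, against 4.54% and 3.2% of all genes past the read limit. The median log2 change was 0.85, a 1.8-fold rise, where the median of all genes was -0.03.

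The 3 IFIT genes and a group of direct antiviral effectors made the largest steps. The IFIT proteins bind viral RNA that lacks a self cap. At 0, 6, 24 and 48 h *Ifit1* was at 24.0, 170, 147 and 335 in WT cells, and at 24.4, 228, 221 and 335 in *Arntl*-/- cells. *Ifit2* was at 43.2, 244, 153 and 497 in WT cells and at 58.8, 235, 231 and 533 in *Arntl*-/- cells. *Ifit3* was at 37.4, 238, 140 and 508 in WT cells and at 48.5, 257, 259 and 563 in *Arntl*-/- cells. In both genotypes these genes were lowest at 0 h and highest at 48 h, and the 24 h library stood below the 6 h library in WT cells for all 3. The log2 change in WT cells from 0 to 6 h was 2.82 for *Ifit1*, 2.50 for *Ifit2* and 2.67 for *Ifit3*. *Ifit3* was taken to have near-identical copies, between which reads may be divided uncertainly.

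The dynamin-like GTPases Mx1 and Mx2, which block viral replication in many species and carry inactivating mutations in C57BL/6 mice, shared that pattern. *Mx1* was at 35.8, 126, 76.8 and 144 in WT cells and at 57.1, 120, 127 and 175 in *Arntl*-/- cells. *Mx2* was at 6.87, 49.9, 29.3 and 52.8 in WT cells, from 35, 585, 118 and 169 reads, and at 15.5, 51.1, 54.2 and 75.9 in *Arntl*-/- cells, from 116, 312, 326 and 234 reads. At 6 h the genotypes were close for both genes, and at 0, 24 and 48 h the *Arntl*-/- library was the higher. *Mx2* had the largest log2 change of the 43 in WT cells from 0 to 6 h, 2.84, with a 95% counting interval (exact binomial, on pairs of mates) of 2.16 to 3.65, which like every such interval here covers counting error only. The gene was on a list, set by hand, of genes taken to have near-identical copies, between which reads may be divided uncertainly. How alike the sequences are was not measured.

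*Rsad2*, which encodes viperin, an enzyme that makes a chain-terminating nucleotide, and its neighbour *Cmpk2*, a mitochondrial nucleotide kinase, lie within 37.1 kb of each other on chromosome 12 of mm9 (27127608 to 27164702). *Rsad2* was at 71.6, 372, 254 and 475 in WT cells and at 84.9, 477, 326 and 495 in *Arntl*-/- cells. *Cmpk2* was at 33.4, 232, 111 and 208 in WT cells and at 45.3, 260, 165 and 246 in *Arntl*-/- cells. Both were at their lowest at 0 h and lower at 24 h than at 6 h in both genotypes. From 6 to 24 h *Cmpk2* fell by 1.06 on the log2 scale in WT cells and by 0.65 in *Arntl*-/- cells, the only fall among the 43 in the latter.

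**Figure D3:**
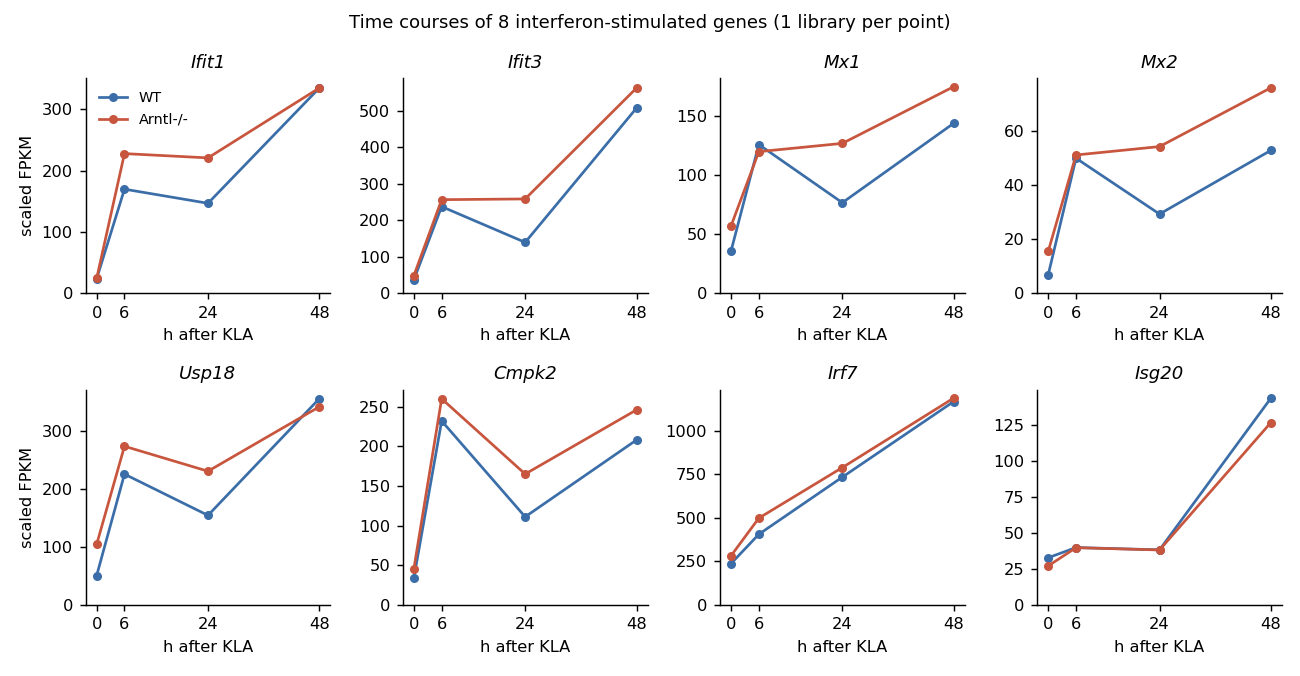
Scaled FPKM of 8 interferon-stimulated genes at 0, 6, 24 and 48 h after KLA, WT in blue and *Arntl*-/- in red, 1 library per point and every vertical axis starting at 0. *Ifit3*, *Mx1* and *Mx2* dip at 24 h in WT and not in *Arntl*-/- cells, *Irf7* climbs at every step in both, and *Isg20* stays below 40 until 24 h and reaches 144 and 127 at 48 h.

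The 2′-5′ oligoadenylate synthetases (OAS) sense double-stranded RNA and switch on RNase L, and the Oasl proteins are related to them. From 0 to 6 h in WT cells 4 of these 6 genes rose. *Oas2* was at 122, 287, 280 and 311 in WT cells and at 198, 278, 371 and 364 in *Arntl*-/- cells. *Oas3* was at 113, 236, 291 and 634 in WT cells and at 146, 293, 401 and 611 in *Arntl*-/- cells. *Oas3*, *Oasl2* and *Oas1g* were higher at each time than at the one before in both genotypes, whereas *Oasl1*, which encodes a translational repressor of *Irf7* mRNA, was at 55.5, 146, 81.9 and 201 in WT cells and at 59.8, 141, 116 and 130 in *Arntl*-/- cells. For *Oasl1* the WT library was thus the higher at 48 h, the reverse of 24 h. *Oas1a* and *Oas1g*, which were taken to have near-identical copies, had log2 changes of 0.50 and 0.44 over the first 6 h in WT cells.

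Several other effectors did not rise by 6 h in WT cells. *Bst2* was at 1440, 1190, 1960 and 3180 in WT cells and at 1310, 1630, 1760 and 2820 in *Arntl*-/- cells. *Lgals3bp* was at 913, 865, 1400 and 2160 in WT cells and at 902, 1170, 1340 and 2090 in *Arntl*-/- cells. Neither rose by 6 h in either genotype, and in WT cells both stood at or below their 0 h level then, with a log2 change of -0.27 and -0.08, while both were highest at 48 h. The summed macrophage markers were likewise lowest in the WT library at 6 h, at 15700 against 21200 at 0 h, and the part of this in the values of *Bst2* and *Lgals3bp* was not tested. That library was also the deepest, with 27036783 reads on genes, and at most 3 tags per position were counted. The part of depth and of this cap in the values of such abundant genes was not tested. *Isg20* was late: it was at 32.8, 39.9, 38.3 and 144 in WT cells and at 27.1, 39.8, 38.2 and 127 in *Arntl*-/- cells, from 69 to 210 reads per library, and rose by 1.91 and 1.73 on the log2 scale from 24 to 48 h, the largest step of the 43 over that interval in each genotype. *Adar*, which edits adenosine in double-stranded RNA, *Eif2ak2*, the kinase PKR that halts translation, and *Samd9l* had log2 changes of 0.40, 0.33 and 0.47 from 0 to 6 h in WT cells, below 1.5-fold.

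Among the other effectors, *Ifi44*, *Rtp4* and *Xaf1* rose by 2.45, 1.26 and 1.18 on the log2 scale from 0 to 6 h in WT cells. *Ifi44* was at 13.5, 74.4, 59.3 and 152 in WT cells and at 21.7, 66.8, 84.0 and 191 in *Arntl*-/- cells. *Rtp4* was at 128, 306, 347 and 552 in WT cells and at 200, 391, 439 and 630 in *Arntl*-/- cells. *Xaf1*, whose product binds the apoptosis inhibitor XIAP, was at 39.0, 88.1, 76.3 and 115 in WT cells and at 58.8, 89.6, 101 and 110 in *Arntl*-/- cells. All 3 were higher in *Arntl*-/- cells at 0 and 24 h.

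*Isg15* encodes a ubiquitin-like protein that is joined to other proteins, *Herc6* the mouse ligase of that reaction, and *Usp18* the protease that removes it and that also binds Ifnar2 and damps the receptor. *Isg15* was at 88.4, 339, 287 and 634 in WT cells and at 97.1, 433, 400 and 652 in *Arntl*-/- cells. *Usp18* was at 50.2, 225, 154 and 355 in WT cells and at 104, 273, 230 and 341 in *Arntl*-/- cells, the *Arntl*-/- library being the higher at 0, 6 and 24 h and the lower at 48 h. *Herc6* was at 57.0, 118, 113 and 150 in WT cells and at 66.1, 121, 112 and 144 in *Arntl*-/- cells. The ubiquitin ligase *Trim25*, which activates RIG-I, stayed within 434 to 622 in the 8 libraries, and *Trim21*, an intracellular antibody receptor, within 86.5 to 134. *Dtx3l*, a ligase that works with Parp9, rose by 0.75 from 0 to 6 h in WT cells, and the genes of the partner *Parp9* and of *Parp14*, which lie with it in 140 kb of chromosome 16 (35832964 to 35972707), rose by 0.60 and 0.66.

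Sensors of nucleic acid rose as a group in WT cells, all 6 of them from 0 to 6 h, with log2 changes of 0.59 to 1.19. *Ddx58*, which encodes the RNA sensor RIG-I, was at 107, 225, 216 and 339 in WT cells and at 128, 233, 274 and 336 in *Arntl*-/- cells. *Ifih1*, which encodes the long-RNA sensor MDA5, was at 73.6, 123, 97.0 and 129 in WT cells and at 79.0, 132, 141 and 133 in *Arntl*-/- cells. *Dhx58*, which encodes their regulator LGP2, was at 160, 287, 197 and 300 in WT cells and at 222, 311, 286 and 346 in *Arntl*-/- cells. At 24 h all 3 stood higher in *Arntl*-/- cells. *Zbp1*, the Z-nucleic acid sensor that can start necroptosis, climbed through 77.9, 178, 228 and 376 in WT cells, while in *Arntl*-/- cells it was at 76.0, 200, 257 and 366. *Ifi204* and *Ifi205*, genes of the interferon-inducible p200 family taken to have near-identical copies, were at 277 to 536 and 86.7 to 182 in WT cells.

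Of the 3 transcription factors, 3 rose from 0 to 6 h in WT cells and 2 in *Arntl*-/- cells, where the change of *Irf9* was 0.34. *Irf7* was at 237, 406, 735 and 1170 in WT cells and at 282, 499, 790 and 1190 in *Arntl*-/- cells. *Stat2* was at 219, 377, 363 and 567 in WT cells and at 252, 397, 523 and 583 in *Arntl*-/- cells. *Irf9* was at 134, 219, 207 and 242 in WT cells and at 172, 218, 221 and 204 in *Arntl*-/- cells. *Irf7* climbed at every step in both genotypes and was the only one of the 43 that rose from 6 to 24 h in *Arntl*-/- cells, by 0.66, where in WT cells *Irf7*, *Bst2* and *Lgals3bp* rose, by 0.85, 0.71 and 0.70. Of the remaining genes, *Ifi47*, an immunity-related GTPase, was at 111, 236, 210 and 228 in WT cells and at 139, 244, 292 and 362 in *Arntl*-/- cells, *Ifi35* rose by 0.67 from 0 to 6 h in WT cells, and *Sp100*, a nuclear body protein, and *Lgals9*, a galectin, had log2 changes of 0.36 and 0.33, below 1.5-fold.

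In *Arntl*-/- cells 25 of the 43 rose and 0 fell from 0 to 6 h, against 2.77% and 2.71% of all genes, with a median log2 change of 0.71. From 0 to 24 h, 27 rose and 0 fell in WT cells, against 7.95% and 7.96% of all genes, and 29 rose and 0 fell in *Arntl*-/- cells, against 7.37% and 8.69%. The medians over that longer interval were 0.88 and 0.91. The 24 h comparison uses the same 0 h libraries as the 6 h comparison, so these counts are not separate from each other.

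Between 6 and 24 h fewer genes moved past 1.5-fold. In WT cells 3 of the 43 rose and 8 fell, against 7.31% and 7.29% of all genes, and the median log2 change was -0.07. The 8 were *Oasl1*, *Ifit2*, *Ifit3*, *Mx1*, *Mx2*, *Cmpk2*, *Trim21* and *Ifi205*, with log2 changes of -0.83, -0.67, -0.77, -0.71, -0.76, -1.06, -0.63 and -0.82. The split depended on the scaling: 1 rose and 11 fell with the values as deposited, against 3.18% and 14.9% of all genes, and 0 rose and 9 fell after a correction for expression level, against 5.43% and 5.36%. In *Arntl*-/- cells 1 rose and 1 fell, against 5.31% and 5.35% of all genes, and the median was 0.08. The change was more positive in *Arntl*-/- than in WT cells for 31 of the 43, where this held for 48.9% of all genes, and the median of the difference was 0.17. That median was 0.35 with the values as deposited and 0.28 with the correction for expression level, and the WT median of -0.07 was then -0.26 and -0.17. Macrophage markers also changed more in WT cells over this interval, 5 of 9 rising with a median of 0.68, where 1 rose in *Arntl*-/- cells with a median of 0.29, and their part in the result was not tested.

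From 24 to 48 h, in WT cells 25 rose and 0 fell, against 6.97% and 8.93% of all genes, with a median log2 change of 0.63. In *Arntl*-/- cells 11 rose and 0 fell, against 6.09% and 8.63% of all genes, with a median of 0.31. With the values as deposited 5 rose in *Arntl*-/- cells, against 4.0% of all genes. Over the same step the summed macrophage markers were at 27400 and then 38000 (WT) and at 25500 and then 33900 (*Arntl*-/-). The stromal sum was at 549 and then 1090 (WT) and at 366 and then 671 (*Arntl*-/-), and their part in the result was not tested. The change was larger in *Arntl*-/- cells for 2 of the 43, against 48.1% of all genes, of which *Ifi47* differed most, by 0.19, and smaller for 41, and the difference was largest for *Oasl1*, at -1.14. Such a difference between intervals is the difference of the genotype ratios at their ends and is not separate from the ratios given further on. Because the same 24 h libraries enter this interval and the preceding one with opposite sign, a high or low value in the WT library at 24 h would move both, and with 1 library that could not be checked.

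The shape over time can be given by counts that combine these intervals. The 24 h level was below both the 6 h and the 48 h level for 26 of the 43 in WT cells, against 25.4% of all genes, and for 14 in *Arntl*-/- cells, against 24.6%. The level climbed at each step for 12 in WT cells, against 7.47% of all genes, and for 22 in *Arntl*-/- cells, against 12.4%. For 12 genes the 24 h dip was present in both genotypes, among them *Ifit1*, *Ifit2*, *Isg15*, *Rsad2*, *Cmpk2* and *Usp18*. The highest of the 4 times was 48 h for 38 genes in the WT and 32 in the *Arntl*-/- libraries, where 33.5% and 32.8% of all genes peaked then.

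**Figure D4:**
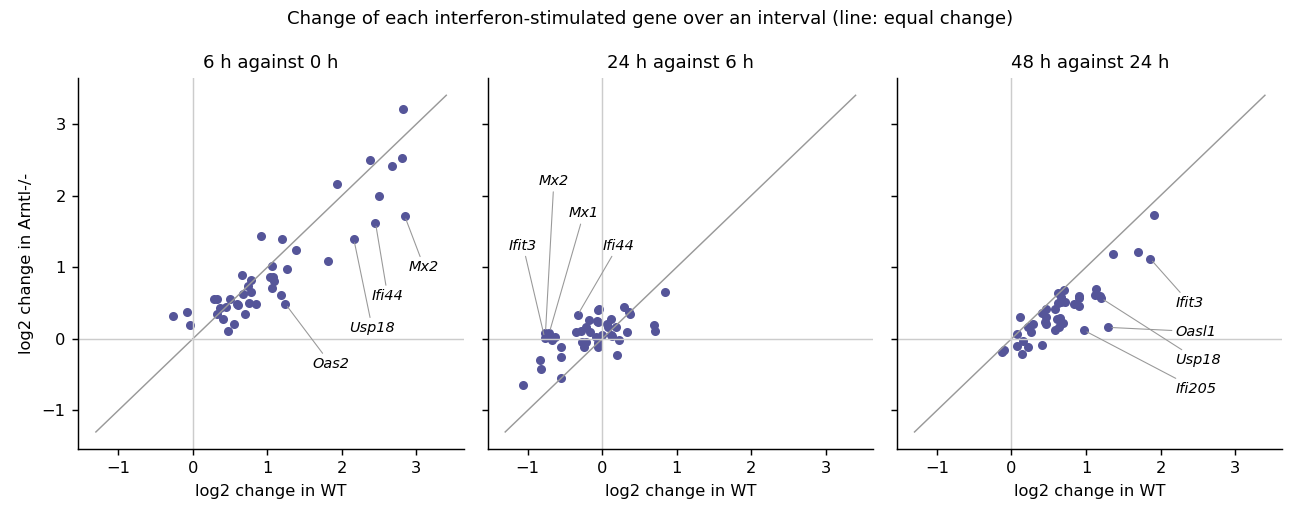
Log2 change of each of the 43 genes over 3 intervals, WT on the horizontal and *Arntl*-/- on the vertical axis, with the line of equal change. Each point is a gene, and the 4 genes with the largest difference between the genotypes are named in each panel. The points lie on both sides of the line at 6 h, mostly above it from 6 to 24 h, and below it for 41 genes from 24 to 48 h.

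The genotypes were then compared at each time, as the log2 ratio of *Arntl*-/- to WT. Before KLA, 8 of the 43 were at least 1.5-fold higher in *Arntl*-/- cells and 0 were lower, against 2.63% and 1.58% of all genes. The median log2 ratio was 0.25, a 1.19-fold difference, against -0.01 for all genes, and 38 of the 43 were above 0, against 47.7% of all genes. The 8 were *Mx2* (1.16), *Usp18* (1.05), *Oas2* (0.70), *Ifi44* (0.68), *Mx1* (0.67), *Oasl2* (0.67), *Rtp4* (0.65) and *Xaf1* (0.59). *Xaf1* was below 1.5-fold with upper-quartile scaling, with a correction for expression level and with a pseudocount of 1, which left 7. The 95% counting interval was 0.38 to 2.03 for *Mx2*, 0.71 to 1.40 for *Usp18* and 0.55 to 0.85 for *Oas2*, and it lay above 0 for 29 of the 43, against 17.1% of all genes. The lowest ratio was that of *Ifi205*, -0.37, and *Ifit1* at 24.4 against 24.0 and *Zbp1* at 76.0 against 77.9 were nearly level.

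At 6 h 0 of the 43 were at least 1.5-fold higher and 0 lower, against 1.93% and 1.87% of all genes. The median log2 ratio was 0.13 against 0.01, 35 of the 43 were above 0 against 52.2% of all genes, and the largest were those of *Bst2* (0.45), *Lgals3bp* (0.43), *Ifit1* (0.42) and *Oas1a* (0.41). The 9 macrophage markers had a median log2 ratio of 0.38 at this time, with sums of 21000 in *Arntl*-/- and 15700 in WT cells, and -0.24, -0.14 and -0.12 at 0, 24 and 48 h, and their part in the result was not tested. Nor was the part of sequencing depth, the WT library at 6 h being the deepest with 27036783 reads on genes. The counting interval lay above 0 for 22, against 26.8% of all genes. With the values as deposited, without size factors, the median at 6 h was -0.01, where that of all genes was -0.12, so that the members stood above the other genes under either scaling while the direction of their own median changed.

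At 24 h 5 were higher and 0 lower, against 3.09% and 2.19% of all genes. These were *Ifit3* (0.89), *Mx2* (0.88), *Mx1* (0.73), *Ifit2* (0.60) and *Ifit1* (0.59), with counting intervals of 0.67 to 1.11, 0.45 to 1.34, 0.47 to 0.99, 0.44 to 0.75 and 0.40 to 0.79. The median was 0.40, a 1.32-fold difference, the widest of the 4 times, where that of all genes was 0.00, and the interval lay above 0 for 35 of the 43, against 16.3% of all genes. The count depended on the setting. It was 10 with the values as deposited, against 3.99% of all genes, when *Cmpk2*, *Dhx58*, *Ifi205*, *Ifih1* and *Usp18* joined. It was 3 with upper-quartile scaling, against 2.93%, and 3 with a correction for expression level, against 2.41%, since *Ifit1* at 0.58 and 0.57 and *Ifit2* at 0.58 and 0.58 then lay just below 1.5-fold. Without the genes taken to have near-identical copies it was also 3, *Ifit3* and *Mx2* being left out.

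At 48 h the genotypes were close again. *Ifi47* was higher in *Arntl*-/- cells (0.67, interval 0.44 to 0.90) and *Oasl1* lower (-0.64, interval -0.92 to -0.36), 1 gene in each direction against 5.08% and 4.9% of all genes. The median log2 ratio was 0.05 against -0.02, and 28 of the 43 were above 0, against 47.0% of all genes. The interval lay above 0 for 15, against 14.7% of all genes.

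**Figure D5:**
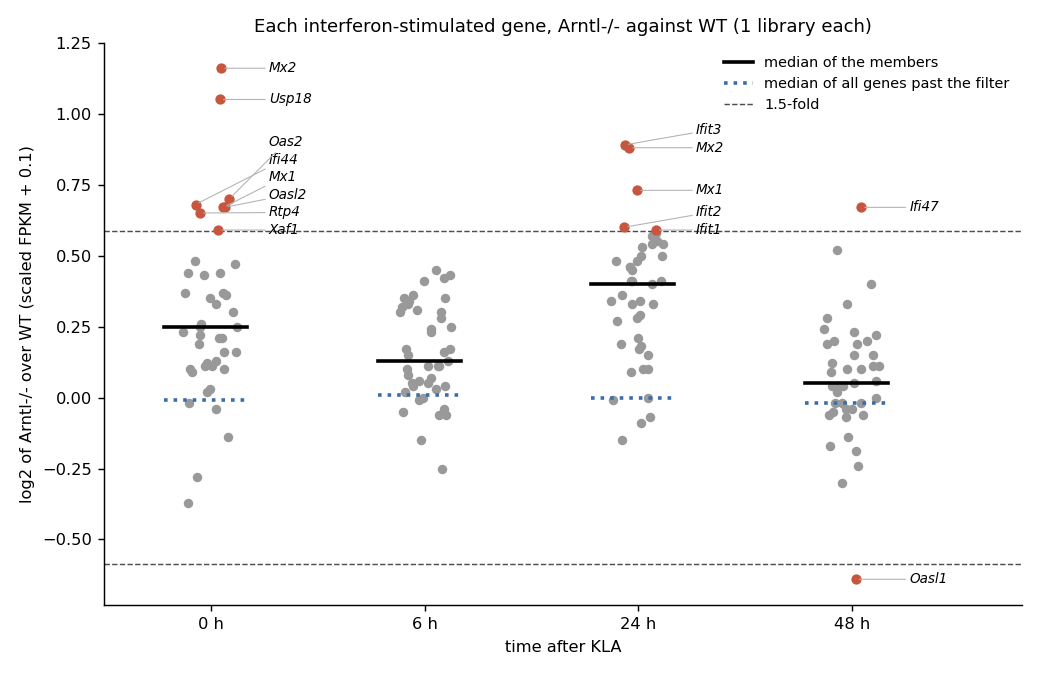
Log2 ratio of *Arntl*-/- to WT for each of the 43 genes at 0, 6, 24 and 48 h after KLA. Points in red and named are past 1.5-fold (dashed lines), black bars are the median of the 43 and dotted blue bars the median of all genes past the read limit. The black bars are at 0.25, 0.13, 0.40 and 0.05, with 8 genes named at 0 h and 5 at 24 h.

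Across the 4 times, 23 of the 43 (53.5%) were higher in *Arntl*-/- cells at every time, against 807 of the 10028 genes (8.05%), and only *Isg20* was lower at every time, by less than 1.5-fold and with nearly level values at 6 and 24 h. With the values as deposited the count of 23 was 15, against 5.95% of all genes. *Mx1* and *Mx2* were past 1.5-fold at both 0 and 24 h. By role, at 0 h the other direct effectors had the highest median log2 ratio, 0.46 over 12 genes with 5 past 1.5-fold, and the 6 OAS genes had 0.36 with 2. At 24 h the 3 IFIT genes had 0.60 with 3 past 1.5-fold, the 6 sensors 0.44 with 0 and the 2 PARP genes 0.12 with 0. Of all genes, 2.63% were at least 1.5-fold higher at 0 h and 3.09% at 24 h. As given above, *Ifit1* and *Ifit2* lay just below 1.5-fold with upper-quartile scaling and with the correction for expression level.

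Some markers of other cell types differed between the genotypes. *S100a9* was at 164, 207, 148 and 10.1 in WT cells and at 403, 428, 371 and 9.00 in *Arntl*-/- cells, higher in the latter at 0, 6 and 24 h and not at 48 h. *S100a8*, the most abundant of the neutrophil list, was at 308, 282, 429 and 910 in WT cells and at 401, 514, 411 and 905 in *Arntl*-/- cells, higher in the latter at 0 and 6 h and lower at 24 and 48 h. *Ngp* was at 37.2, 33.3, 17.1 and 0.00 and at 83.4, 55.2, 38.4 and 2.70. The stromal collagen gene *Col3a1* was lower in *Arntl*-/- cells at each time, at 80.4, 104, 125 and 187 in WT cells and at 43.4, 42.6, 46.9 and 89.7 in *Arntl*-/- cells. *Dcn* of the same stromal list was at 16.8, 42.0, 29.3 and 62.3 in WT cells and at 39.1, 34.6, 37.0 and 91.3 in *Arntl*-/- cells, higher in the latter at 0, 24 and 48 h. The part of these in the differences between genotypes was not tested.

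The genes of the pathway that leads to interferon were then examined, from lists of the ligands, receptors, induction arm and regulators. The 16 ligand genes had a row and none reached the read limit. *Ifnb1*, the interferon that TLR4 signaling induces, had 0 reads in each WT library and 1, 4, 0 and 0 in the *Arntl*-/- libraries, and the only ligand with more than 4 reads in any library was *Ifnz*, with 12, 8, 4 and 6 reads in WT cells and 0 in each *Arntl*-/- library. Interferon genes have near-identical copies, and the first time after KLA was 6 h. *Ifng*, the type II interferon, had at most 2 reads.

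The receptors and kinases were expressed. *Ifnar1* was at 347, 353, 366 and 308 in WT cells and at 362, 381, 382 and 295 in *Arntl*-/- cells. Of the 7 genes of that list and the 11 of the TLR4 to Irf3 arm, 0 were past 1.5-fold between the genotypes at any of the 4 times, which in lists of this size is near the shares of all genes given above. *Jak2*, the kinase of the type II receptor, was higher in *Arntl*-/- cells by a log2 ratio of 0.30 at 24 h (interval 0.19 to 0.42) and 0.41 at 48 h (interval 0.24 to 0.58). The median log2 ratio of the receptors and kinases was -0.02, 0.11, 0.05 and 0.11 at 0, 6, 24 and 48 h, and that of the induction arm 0.10, -0.02, 0.02 and 0.10. Over time *Jak2* rose by 0.79 from 0 to 24 h in WT cells and by 1.04 in *Arntl*-/- cells, and the TLR4 adaptor *Ticam2* by 1.02 and 1.05.

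Of the 7 other STAT and IRF factors 6 reached the read limit, and 0 of these were past 1.5-fold between the genotypes, which in a list of this size is near the shares of all genes. The gene below the limit, *Batf2*, was at 7.94, 33.7, 31.0 and 49.4 in WT cells. In *Arntl*-/- cells it was at 23.0, 35.4, 37.4 and 41.0, with 98 reads at 0 h against 23 in WT cells. Of the 8 negative regulators 7 reached the read limit, and *Socs1*, which inhibits the JAK kinases, was the only one past 1.5-fold between the genotypes, at 51.4 against 27.6 before KLA (0.90, interval 0.33 to 1.5, from 195 and 71 reads). At 6, 24 and 48 h its ratio was 0.01, -0.27 and -0.19. *Socs3*, which restrains Stat3 signaling, was at 183, 355, 527 and 452 in WT cells and at 185, 407, 577 and 408 in *Arntl*-/- cells.

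Of 17 NF-kB target cytokines and related genes 14 reached the read limit, and 3, 2, 2 and 2 were at least 1.5-fold higher in *Arntl*-/- cells and 0, 0, 0 and 2 lower at 0, 6, 24 and 48 h, where 2.63%, 1.93%, 3.09% and 5.08% of all genes were higher and 1.58%, 1.87%, 2.19% and 4.9% lower. *Cxcl10*, a T cell chemoattractant, was at 74.6, 341, 220 and 157 in WT cells and at 89.0, 465, 241 and 94.6 in *Arntl*-/- cells, highest at 6 h in both genotypes, and it fell from 24 to 48 h in *Arntl*-/- cells by 1.35 on the log2 scale. *Ccl5* was at 149, 407, 397 and 418 in WT cells and at 127, 487, 374 and 435 in *Arntl*-/- cells. *Nos2*, the inducible nitric oxide synthase, was at 11.9, 105, 115 and 273 in WT cells and at 31.5, 135, 274 and 523 in *Arntl*-/- cells, higher in *Arntl*-/- cells at every time and past 1.5-fold at 0, 24 and 48 h.

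The clock genes that act with Bmal1 differed in both directions. *Nr1d2*, which encodes REV-ERB beta, was at 70.6, 60.2, 95.4 and 90.2 in WT cells and at 6.15, 3.23, 2.76 and 3.70 in *Arntl*-/- cells, and *Nr1d1*, which encodes REV-ERB alpha, was at 44.5, 33.9, 26.2 and 37.0 and at 19.6, 12.6, 10.0 and 16.7. Both were lower in *Arntl*-/- cells at each time. The repressor *Cry1* was higher in *Arntl*-/- cells at each time, at 182, 154, 208 and 187 against 39.6, 46.7, 53.5 and 35.7, as was *Per2*, at 24.0, 29.3, 33.7 and 34.7 against 8.84, 5.67, 10.4 and 15.2, and *Cry2*, at 58.1, 63.1, 95 and 74.8 against 37.6, 30.1, 38.5 and 58.3. Of the 11 genes of that list 10 reached the read limit, and 3, 3, 3 and 2 were at least 1.5-fold higher and 3, 3, 3 and 3 lower in *Arntl*-/- cells at 0, 6, 24 and 48 h. The deleted gene *Arntl* was itself among the lower at each time. Of all genes, 2.63%, 1.93%, 3.09% and 5.08% were higher and 1.58%, 1.87%, 2.19% and 4.9% lower. The site TAGGTCA, to which the REV-ERB proteins bind, was in 1 of the 43 promoters, as given above.

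Some of the genes were neighbours on the genome. Of the 43, 16 lay in 6 groups whose neighbouring genes were within 200 kb of each other, a count for which no share of all genes was computed. The 3 IFIT genes spanned 99.3 kb of chromosome 19 (34625184 to 34724499), *Mx1* and *Mx2* 114 kb of chromosome 16 (97668644 to 97782506), *Oasl1* and *Oasl2* 41.0 kb of chromosome 5 (115346943 to 115387920), and *Oas2*, *Oas3*, *Oas1g* and *Oas1a* 177 kb of the same chromosome (121180342 to 121357534). Neighbours did not always move alike. At 48 h the log2 ratio of *Arntl*-/- to WT was -0.64 for *Oasl1* and 0.12 for *Oasl2*, and at 0 h it was 0.03 for *Ifit1* and 0.44 for *Ifit2*. The value of *Ifit1* rested on 134 reads in WT and 201 in *Arntl*-/- cells, so the gap between these neighbours is uncertain.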

How the data were processed

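PolyA RNA of 8 BMDM libraries was sequenced and the authors aligned the reads with STAR to mm9 and counted them over exons with HOMER, on both strands, with at most 3 tags per position and 1 transcript per gene. The authors deposited the counts as FPKM, per kb of exon and per 10000000 reads. Of 12 value columns 4 were not used, and 1 line with no value in its last column was left out. Reads were recovered from the FPKM steps, and each library was divided by its median-of-ratios size factor. Log2 values used a pseudocount of 0.1 FPKM, genes needed a mean of at least 100 scaled reads, and 1.5-fold was the threshold for a rise or fall. With 1 library per condition no test was made. Counting intervals were 95% Clopper-Pearson intervals of read pairs, since both mates were counted. All listed genes, the pathway lists and the 10 other genes nearest to the median profile were named. The rule for members matched symbols and used no measured value, but the members and lists were chosen with earlier results of these data known. Alternatives were other scalings, pseudocounts and filters and the removal of 7 genes taken to have near-identical copies. These were *Oas1a*, *Oas1g*, *Ifi204*, *Ifi205*, *Ifit3*, *Ifi47* and *Mx2*, a list set by hand without measuring how alike the sequences are. Scripts ran under matplotlib 3.10.9, statsmodels 0.14.6, scipy 1.17.1, pandas 2.3.3 and numpy 2.4.6 in Python 3.11.15 and were tested on simulated data. Promoters were read from the mm9 genome.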

Additional observations from a re-analysis of the deposited data

Results flagged for a closer look

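From 6 to 24 h the median of the genes had a change below 0 in WT cells and above 0 in *Arntl*-/- cells. The same held for 4 single genes that fell at least 1.5-fold in WT cells. Other genes did so by less than 1.5-fold, among them *Stat2* and *Oas2*. These differences were not tested because each condition had 1 library. Most of the 43 stayed within 1.5-fold over this interval, 32 in WT and 41 in *Arntl*-/- cells. The median log2 change of the 43 genes was -0.07 without and 0.08 with the loss of *Arntl*. For *Ifit3* the WT change was -0.77 and the *Arntl*-/- change 0.01. In the same order the values were -0.71 and 0.08 for *Mx1*, -0.76 and 0.08 for *Mx2*, and -0.63 and 0.02 for *Trim21*. The 5 WT values use the WT library at 24 h, which held 10685710 reads.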

How the results depend on the processing

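With the values as deposited, the genotypes differed at 6 h by a median log2 ratio of -0.01 (all genes -0.12), 10 genes were higher in *Arntl*-/- cells at 24 h, and 15 were higher at all 4 times (5.95% of all genes). The median change in WT cells from 6 to 24 h was then -0.26 (all genes -0.18) with 1 rise, and 5 genes rose from 24 to 48 h in *Arntl*-/- cells (4.0% of all genes, with a median of -0.13). All genes had a median of 0.13 from 0 to 6 h in WT cells under that scaling. With upper-quartile scaling 3 genes were higher in *Arntl*-/- cells at 24 h, and likewise 3 with a correction for expression level, under which 0 rose in WT cells from 6 to 24 h. Without the 7 genes taken to have near-identical copies, 3 were higher in *Arntl*-/- cells at 24 h, 0 at 48 h, and 5 fell in WT cells from 6 to 24 h, fewer genes being counted. Where not so explained, the cause was not tested. Of 344 summary values 332 kept their direction and moved by less than the typical distance from a value to the end of its counting interval, or for counts by at most 1.5 times, as did 116 of 116 values of single genes. These counts are no rate of stability. All 43 genes passed every filter, so the filter settings had to return the same values. Leaving out some genes also cannot change the value of another gene. Some small medians moved by more than 1.5 times within the typical distance just named. Among them, the difference in response (*Arntl*-/- minus WT) went from -0.13 to -0.34 as deposited and -0.26 with the expression-level correction over 0 to 6 h, and from 0.17 to 0.35 and 0.28 over 6 to 24 h. With that correction the median genotype ratio at 6 h was 0.06 and the WT change from 6 to 24 h -0.17. The median genotype ratio at 48 h went from 0.05 to 0.09 as deposited and 0.08 with the same correction. The median *Arntl*-/- change from 24 to 48 h went from 0.31 to 0.2 as deposited. No paired analysis was possible because the labels give no replicate numbers and each condition has 1 library, and for the same reason no library could be left out. At 0 h *Mx2* rested on 35 reads in WT cells, and its interval was accordingly wide.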

Other observations

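Outside the list, the 10 genes whose profile over the 8 libraries was nearest to the median profile of the 43 were *Parp10*, *Pyhin1*, *Trim30d*, *Irgm1*, *Uba7*, *Ddx60*, *Trex1*, *Tmem150a*, *Cd274* and *Slfn8*. The root mean square difference of centred log2 values was 0.0608 for *Parp10*, 0.0631 for *Pyhin1* and 0.114 for *Slfn8*, where the nearest of the 43, *Stat2*, was at 0.0669. The likeness is over 8 libraries and is a description.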
